A study of Mus musculus with 4 samples.

Results

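The 10 genes described here serve the uptake and first use of amino acids and monocarboxylates, and their transcripts were followed in mouse natural killer (NK) cells with and without Dickkopf 2 (DKK2). They are 9 plasma membrane transporter genes (Slc7a5, Slc3a2, Slc1a5, Slc7a1, Slc7a6, Slc38a1, Slc38a2, Slc16a1 and Slc16a6) and Bcat1, which encodes the cytosolic branched-chain aminotransferase. The genes were picked by symbol from a table of 37305 rows after Slc7a5, Slc16a6 and Bcat1 had been seen at lower levels with DKK2, so the difference between the groups is a description of the choice and is not tested here as a finding. Each symbol stood on 1 row, and all 10 had a mean of at least 1 FPKM (fragments scaled to transcript length and to mapped fragments of the library), the level above which 12275 rows were tested.

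The cells came from spleens of C57BL/6 mice at postnatal day 56. All 4 libraries are of cells held for 24 hours in recombinant mouse interleukin 15 (IL-15) at 50 ng/ml, a cytokine that keeps NK cells alive and growing. A further 24 hours followed, with mock treatment for the control group (2 libraries) and with DKK2 at 200 ng/ml for the DKK2 group (2 libraries). DKK2 is a secreted modulator of Wnt signalling that acts through the co-receptors LRP5 and LRP6. The labels do not state whether the 2 libraries of a group came from different animals or cultures, so the spread between them may be technical.

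Activated lymphocytes take up large amounts of neutral amino acids, and the carriers involved work in chains. SLC1A5 and the SLC38 carriers bring in glutamine and other small neutral amino acids with sodium. SLC7A5, an exchanger held at the membrane by the heavy chain SLC3A2, brings in leucine and other large neutral amino acids, and leucine activates the growth kinase complex mTORC1. BCAT1 moves the amino group of leucine, isoleucine and valine to alpha-ketoglutarate. The SLC16 family carries lactate, pyruvate and related acids, which matters in cells that run on glycolysis. In NK cells, SLC7A5 and SLC3A2 are known to be induced by activating cytokines.

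Promoter sequences are shown for 3 members that span the range of differences described below. Bcat1 had the largest fold and Slc3a2 the smallest among the 6 members found in the RefSeq promoter table (GRCm38.p6, a later build than the mm9 named for the expression data), and Slc16a1 was the only one of the 6 with an E-box, the core recognition sequence of the MYC family. Each is the 250 bases before an annotated start, read along the gene's strand. Capitals mark the E-box CACGTG and the GC box GGGCGG (also as its complement), which do not overlap.
Slc16a1, chr3:104638414-104638663, plus strand: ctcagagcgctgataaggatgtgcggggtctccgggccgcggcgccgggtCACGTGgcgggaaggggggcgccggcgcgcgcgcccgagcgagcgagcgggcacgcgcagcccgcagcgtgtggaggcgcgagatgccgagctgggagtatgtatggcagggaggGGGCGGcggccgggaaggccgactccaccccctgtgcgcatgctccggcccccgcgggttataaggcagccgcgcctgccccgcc
Slc3a2, chr19:8713898-8714147, minus strand: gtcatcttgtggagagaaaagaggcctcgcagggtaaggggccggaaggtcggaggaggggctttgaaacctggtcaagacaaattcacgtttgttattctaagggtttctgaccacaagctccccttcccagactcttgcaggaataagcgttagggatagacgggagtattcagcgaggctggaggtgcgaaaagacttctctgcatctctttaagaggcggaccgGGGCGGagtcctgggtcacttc
Bcat1, chr6:145076158-145076407, minus strand: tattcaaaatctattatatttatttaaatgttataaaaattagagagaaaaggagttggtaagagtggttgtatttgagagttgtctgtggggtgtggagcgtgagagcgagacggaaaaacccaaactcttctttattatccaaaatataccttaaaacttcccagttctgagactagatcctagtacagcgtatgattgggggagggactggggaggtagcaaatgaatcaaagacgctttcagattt
The E-box of Slc16a1 begins 200 bases before the start and its GC box 85 bases before it, and the GC box of Slc3a2 begins 22 bases before the start. Slc7a1, Slc38a2 and Slc7a6 also held a GC box, so that 5 of the 6 matched members had one in at least 1 of their annotated promoters, 9 in all. Across 32536 distinct promoters of the same length, 33.0% held a GC box and 6.04% an E-box on either strand. These shares count promoters, whereas 5 of 6 counts genes, some with more than 1 promoter, so the units differ. The letters TGATGNAA, a core of the sites bound by the amino acid response factor ATF4, were in none of the 9 windows and in 3.40% of all promoters. Slc7a5, Slc1a5, Slc38a1 and Slc16a6 are named only.

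All 4 libraries carried NK cell transcripts at high levels, and the libraries differed in transcripts of other cells. The median over 10 NK markers was 470 and 381 FPKM in control replicates 1 and 2 and 568 and 435 FPKM in DKK2 replicates 1 and 2. Their sum, mostly granzyme B (Gzmb), was 17120 and 14450 FPKM in control cells and 11150 and 11080 FPKM with DKK2. Gzmb and Prf1 were the 2 of the 10 with both DKK2 libraries below both controls, where 14.8% of all rows tested were. In the fit 4 of the 10 NK markers were lower with DKK2 and 6 higher, with a median log2 difference of 0.07. Summed over 10 macrophage and monocyte markers the level was 8.25 and 215 FPKM in control replicates 1 and 2 and 664 and 358 FPKM in DKK2 replicates 1 and 2. Summed over 9 neutrophil markers it was 1.18, 63.4, 3375 and 121 FPKM in that order, over 9 T cell markers 91.1, 191, 283 and 248.6 FPKM, and over 8 B cell markers 4.51, 150, 198 and 313 FPKM. Over 8 dendritic cell markers, mostly Itgax, which NK cells also express, it was 36.9, 15.0, 31.2 and 26.4 FPKM. Of 30 tested markers of T cells, B cells, macrophages and neutrophils, 29 were lowest in control replicate 1, where the macrophage complement genes C1qa and C1qc were listed at 0. The steps between low values put control replicate 1 as the deepest library, with the others at 0.35 to 0.40 of its depth. In bulk RNA, fewer cells of a type cannot be told apart from less RNA per cell.

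Slc7a5 encodes LAT1, the light chain that carries leucine. It was at 61.7 and 49.2 FPKM in control cells and at 23.8 and 31.3 FPKM with DKK2. Both DKK2 libraries were below both controls, and the mean with DKK2 was 0.497 of the control mean. On the log2(FPKM + 1) scale used for all differences, the fitted value was -0.99 ± 0.28 (standard error, SE, from limma; 95% interval -1.71 to -0.26). The gap between the controls was 0.32 and that between the DKK2 libraries 0.38 on the same scale.

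Slc3a2 encodes the heavy chain that LAT1 needs to reach the membrane. Its level was 71.8 and 55.6 FPKM in control cells and 44.97 and 72.1 FPKM with DKK2, so the groups overlapped and DKK2 replicate 2 was the highest of all libraries. The fitted difference was -0.15 ± 0.34, with an interval from -1.02 to 0.72. Left out singly, control replicate 1 and DKK2 replicate 1 turned the sign, to 0.03 and 0.19.

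Slc7a6, which encodes y+LAT2, another light chain of SLC3A2 that exchanges cationic for neutral amino acids, was at 24.1 FPKM in both controls. With DKK2 it was at 21.3 and 16.4 FPKM, below both controls (-0.35 ± 0.26). The value was -0.17 without DKK2 replicate 2 and -0.53 without DKK2 replicate 1. After each library was rescaled to its own median the groups of Slc7a6 overlapped.

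Ratios of FPKM values within a library compare genes per unit of length. The Slc7a5 level was 0.859 and 0.884 of the Slc3a2 level in the controls and 0.529 and 0.434 of it with DKK2. The controls were thus nearly equal in this ratio although they differed in each gene, and both DKK2 libraries were lower. With both light chains added, Slc7a5 plus Slc7a6 came to 1.19 and 1.32 times Slc3a2 in the controls and to 1.0 and 0.662 times in the DKK2 libraries. Slc7a5 stood at 2.56 and 2.04 times Slc7a6 in the controls and at 1.12 and 1.91 times with DKK2. These ratios use the contrast by which the genes were picked and carry no test.

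**Figure D1:**
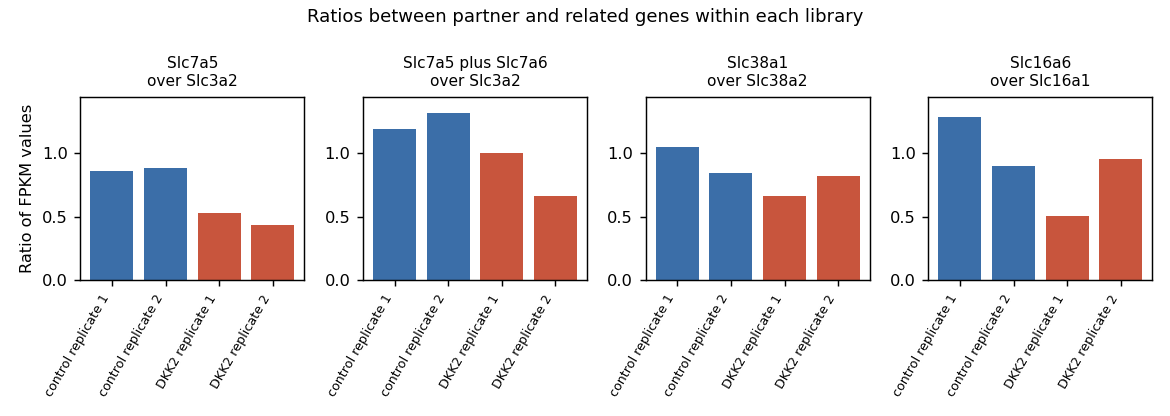
Bars give the ratio of 2 FPKM values within each library (y axis, no unit), blue for control and red for DKK2. The ratio of Slc7a5 to Slc3a2 was 0.859 and 0.884 in the controls and 0.529 and 0.434 with DKK2, while for Slc16a6 to Slc16a1 the groups overlapped.

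Slc1a5, which encodes the glutamine carrier ASCT2, had the highest mean level of the 10 genes. It was at 188.6 FPKM in control replicate 1 and at 97.97 FPKM in control replicate 2, a gap of 0.94 on the log2 scale. With DKK2 it was at 64.9 and 106.8 FPKM, so DKK2 replicate 2 was above control replicate 2 and the groups overlapped. The fitted difference was -0.70 ± 0.44 (interval -1.85 to 0.45), and leaving out control replicate 1 or 2 gave -0.23 or -1.17, and leaving out DKK2 replicate 1 or 2 gave -0.35 or -1.06.

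Slc38a1 and Slc38a2 encode SNAT1 and SNAT2, sodium-coupled carriers of glutamine and other small neutral amino acids. Slc38a1 was at 62.7 and 58.1 FPKM in control cells and at 35.5 and 45.1 FPKM with DKK2 (-0.58 ± 0.26). Both DKK2 libraries were below both controls by more than the gap between the controls, 0.11, and the nearer of them lay 0.36 below the lower control, against a gap of 0.34 between the DKK2 libraries. Slc38a2 was at 59.5 and 68.7 FPKM in control cells and at 53.8 and 55.1 FPKM with DKK2 (-0.23 ± 0.24). That separation, 0.11 between the nearest pair, was smaller than the 0.20 between the controls, and it was gone after median rescaling and after quantile normalization. Without control replicate 2 the difference was -0.12. The Slc38a1 level was 1.05 and 0.846 of the Slc38a2 level in the controls and 0.660 and 0.818 of it with DKK2.

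Slc7a1 encodes CAT1, the main carrier of arginine and lysine in many cells. It was at 33.2 and 22.5 FPKM in control cells and at 14.04 and 17.4 FPKM with DKK2 (-0.77 ± 0.30). The DKK2 libraries were below both controls, and the higher of them was 0.35 under control replicate 2, less than the gap of 0.55 between the controls. Without control replicate 1 the difference was -0.50.

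Bcat1 was the lowest of the 10 genes, at 6.99 and 5.02 FPKM in control cells and at 2.25 and 2.05 FPKM with DKK2. The mean with DKK2 was 0.358 of the control mean, and the fitted difference was -1.14 ± 0.31 (interval -1.95 to -0.33). A pseudocount of 1 understates the fold of a gene this low: with 0.1 the value was -1.42 and with 5 it was -0.62. Its mitochondrial counterpart Bcat2 was far more abundant, so that Bcat1 amounted to 0.138 and 0.149 of the Bcat2 level in the controls and to 0.0733 and 0.0494 of it with DKK2. The steps between low values put the Bcat1 values at about 393 and 98.7 fragments per kilobase of transcript in the controls and 48.6 and 46.0 with DKK2, against at least 304 for every other member in every library. These depths assume that each library was scaled by its own total alone.

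Slc16a6 and Slc16a1 belong to one family of acid carriers. Slc16a6, which encodes MCT7, a less studied member, was at 38.6 and 35.8 FPKM in control cells and at 15.6 and 16.7 FPKM with DKK2 (-1.15 ± 0.23, interval -1.76 to -0.55). The replicates were 0.11 and 0.09 apart on the log2 scale and the nearest libraries of the 2 groups 1.06. Without any one library the difference stayed between -1.21 and -1.10. Slc16a1 encodes MCT1, a carrier of lactate and pyruvate, and was at 29.8 and 39.6 FPKM in control cells and at 31.1 and 17.5 FPKM with DKK2 (-0.54 ± 0.37). Its DKK2 replicate 1 lay between the controls, and leaving out DKK2 replicate 1 or 2 gave -0.93 or -0.14, and leaving out control replicate 2 gave -0.34. Slc16a6 was at 1.29 and 0.903 times Slc16a1 in the controls and at 0.502 and 0.952 times with DKK2. Whether the 2 genes differ in their difference was not tested.

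**Figure D2:**
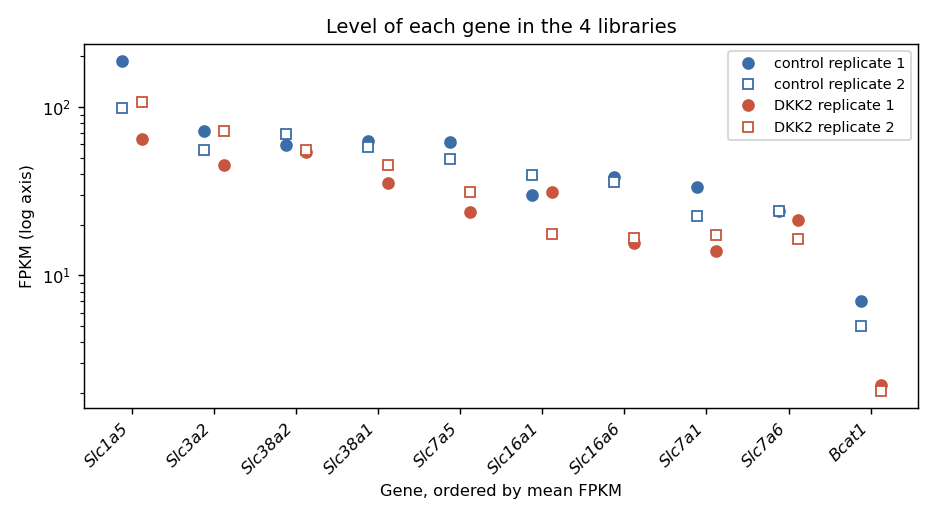
Points give the FPKM of each gene in each library (log axis), with genes ordered by mean FPKM from left to right, blue for control and red for DKK2, filled for replicate 1 and open for replicate 2. In 7 genes both red points are under both blue points, and in Slc1a5, Slc3a2 and Slc16a1 the groups overlap.

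Over the 10 genes, 7 had both DKK2 libraries below both controls and 0 had both above. Among all 12275 rows tested, 14.8% had both DKK2 libraries below and 11.8% both above, and since the genes were picked on this contrast nothing is read from the comparison. After median rescaling 5 of the 10 were below, against 11.5% of all rows. All 10 fitted differences were under 0, where 56.4% of all rows were. Their median was -0.64, and the median of all rows tested was -0.05. In 4 of the 10 (Slc7a5, Slc38a1, Bcat1 and Slc16a6) the gap between the nearest libraries of the 2 groups exceeded the gap between replicates in either group, as it did, with DKK2 lower, in 3.67% of all rows. By limma with Benjamini-Hochberg adjustment over all rows, 0 of the 10 passed a threshold of 0.05, where 0.0326% of all rows did. Before adjustment 3 had a limma p under 0.05, where 1.84% of all rows did. Those 3 were Slc7a5, Slc16a6 and Bcat1, the genes whose lower levels led to the choice of the 10. They are also 3 of the 4 with the wider gap, so neither count stands apart from the choice. The adjusted p was 1 for each of the 10. For 1 gene, permuting 2 libraries against 2 exactly cannot give a p under 0.333.

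**Figure D3:**
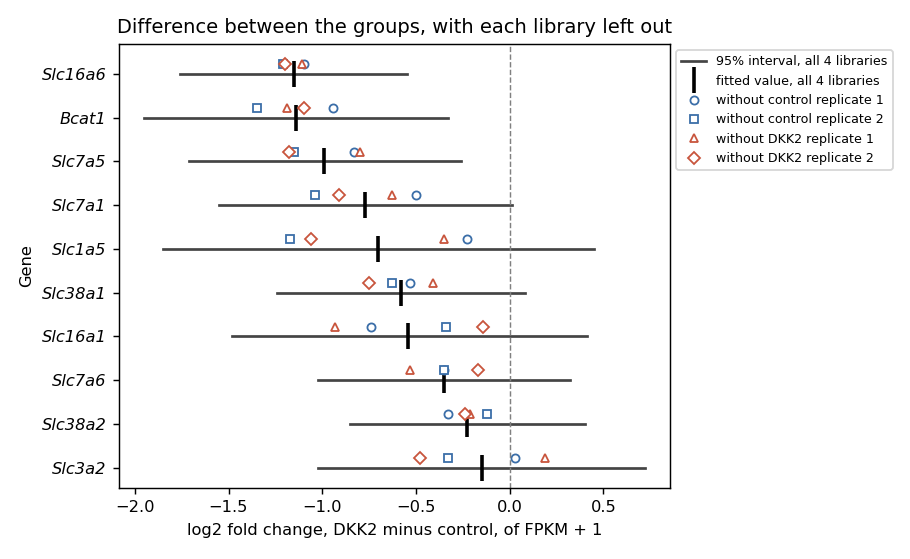
Horizontal lines give limma's 95% interval of the log2 fold change of FPKM + 1 (x axis, DKK2 minus control) for each gene, black ticks the fitted value, and open symbols the value when 1 library is left out. Slc16a6 stays between -1.21 and -1.10, whereas Slc1a5 ranges from -1.17 to -0.23 and Slc3a2 crosses 0.

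The separate pairs of libraries show how much of this rests on each library. DKK2 replicate 1 was the lowest library in 7 of the 10 genes and DKK2 replicate 2 in the other 3 (Slc16a1, Slc7a6 and Bcat1), and control replicate 1 was the highest in 7. Summed over the 10 genes the level was 577.0 and 456.4 FPKM in control cells and 307.3 and 380.4 FPKM with DKK2. The median difference from control replicate 1 was -0.99 for DKK2 replicate 1 and -0.77 for DKK2 replicate 2, and from control replicate 2 it was -0.61 and -0.44. Over all rows tested the medians of the same pairs, in that order, were -0.1, -0.07, -0.03 and 0.05. The controls themselves differed, with control replicate 2 lower than control replicate 1 in 8 of the 10 (median -0.21). Summed markers of macrophages, neutrophils and B cells were nearly absent from control replicate 1, those of T cells were lowest there, and those of macrophages and neutrophils were highest in DKK2 replicate 1. Their part in these differences was not tested. Between control replicate 2 and DKK2 replicate 2, 8 of the 10 genes were lower with DKK2. This pair was not matched in other cells. Summed macrophage markers were 215 and 358 FPKM and neutrophil markers 63.4 and 121 FPKM. B cell markers were at 150 and 313 FPKM and T cell markers at 191 and 248.6 FPKM. The exceptions in that pair were Slc1a5 and Slc3a2.

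In order of mean level the 10 genes ran from Slc1a5 through Slc3a2, Slc38a2, Slc38a1, Slc7a5, Slc16a1, Slc16a6, Slc7a1 and Slc7a6 to Bcat1. Slc1a5 ranked above 91.5% of the rows tested and Bcat1 above only 21.9%. Of the 9 neighbouring pairs in this order, only Slc7a6 and Bcat1 had ranges over the 4 libraries that did not overlap. Slc1a5 was nevertheless above Slc3a2 in each of the 4 libraries, and Slc38a1 above Slc7a5.

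The rows closest to Slc7a5 in profile, by Euclidean distance between mean-centred log2 values over the 4 libraries, were Lif (distance 0.103), Fosl1 (0.126), Srm (0.177), Gpd2 (0.214) and the pseudogene Gm10177 (0.214). Lif encodes leukaemia inhibitory factor, a cytokine, and was at 4.62 and 3.83 FPKM in control cells and 1.42 and 1.95 FPKM with DKK2. Srm encodes spermidine synthase, and Gpd2 the mitochondrial glycerol-3-phosphate dehydrogenase. For Slc16a6 the closest were Lif (0.248), Bcat1 (0.251), the isoprenoid gene Idi1 (0.284), Slc7a5 (0.307) and Gpd2 (0.312). For Bcat1 they were the pseudogenes Gm11585 (0.084) and Gm13392 (0.242), then Slc16a6 (0.251), the pseudogene Gm10177 (0.272) and Smyd5 (0.288). Among the other members, Slc7a1 ranked 15th in distance from Slc7a5, Slc16a6 28th and Bcat1 59th. Slc3a2, which encodes the heavy chain of LAT1, ranked 2720th from Slc7a5. The pseudocount of 1 shrinks the differences of low genes and so bears on the distances of Fosl1 and Idi1. Fosl1 was at 2.41 and 1.99 FPKM in control cells and 0.501 and 0.937 FPKM with DKK2. Idi1 was at 3.63 and 3.24 FPKM in control cells and 0.666 and 0.631 FPKM with DKK2. With 4 libraries many rows share a profile, and these distances are a description.

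Related genes were followed in 8 lists. In all, 97 genes outside the 10 were high enough to test, and limma called 0 of them after adjustment (1 had an unadjusted p under 0.05, the zinc importer gene Slc39a10). Both DKK2 libraries were below both controls in 22 of the 97, or 22.7%, and above both in 8, against 14.8% and 11.8% of all rows. In the fit 67 of the 97 were lower, where 56.4% of all rows were, and the median difference was -0.14. The values that follow are thus descriptions.

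Other amino acid transporters of the plasma membrane were mostly low: 9 of 24 could be tested, 5 lower and 4 higher, with a median of -0.12. Slc43a3, a purine carrier from an amino acid transporter family, was the most abundant, at 67.8 and 75.6 FPKM in control cells and 38.0 and 80.8 FPKM with DKK2. The taurine carrier gene Slc6a6 was at 31.2 and 29.6 FPKM versus 13.0 and 29.3 FPKM with DKK2 (-0.61 ± 0.42). Slc43a2, which encodes the leucine carrier LAT4, was at 6.48 and 7.21 FPKM in control cells and 4.23 and 14.3 FPKM with DKK2. Slc7a8, the light chain LAT2, was at 0.137 FPKM in control replicate 1 and at 4.43, 4.03 and 9.98 FPKM in control replicate 2 and the DKK2 replicates (1.58 ± 0.86). The low value was in the library that nearly lacked macrophage, neutrophil and B cell markers and was also the deepest. A link between these was not tested. The list median was 0.20 without DKK2 replicate 1 and -0.50 without DKK2 replicate 2.

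Amino acid carriers of lysosomes and mitochondria had a median of -0.13, with 10 of 12 lower, 1 of them with both DKK2 libraries below both controls. The mitochondrial aspartate-glutamate carrier gene Slc25a12 was at 209.4 and 157.7 FPKM in control cells and 104.8 and 196.6 FPKM with DKK2. Slc25a22, a mitochondrial glutamate carrier, was at 51.0 and 30.8 FPKM versus 11.9 and 36.7 FPKM (-0.88 ± 0.59), where DKK2 replicate 1 alone was low. The lysosomal peptide and histidine carrier gene Slc15a3 was at 0.444 FPKM in control replicate 1 and at 19.4, 8.96 and 28.2 FPKM in the others. Control replicate 1 was the library with the fewest macrophage, neutrophil and B cell transcripts, and a link with Slc15a3 was not tested. The list median was 0.09 or -0.39 when DKK2 replicate 1 or 2 was left out, and -0.27 when control replicate 2 was.

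Of the remaining monocarboxylate transporters, chaperones and lactate enzymes 8 of 22 were tested, 5 lower and 3 higher, with a median of -0.05 (-0.23 to 0.05 with 1 library left out). Ldha, which makes lactate from pyruvate, was at 680.9 and 754.5 FPKM in control cells and 676.5 and 670.6 FPKM with DKK2 (-0.09 ± 0.28). Bsg, the chaperone of MCT1, was at 182.8 and 165.7 FPKM versus 136.6 and 160.6 FPKM (-0.23 ± 0.26), and Emb, which encodes embigin, a related chaperone, at 101.5 and 139.6 FPKM versus 98.1 and 163.5 FPKM. Slc16a3, the lactate exporter MCT4, was at 6.49 and 21.5 FPKM in control cells and 10.4 and 26.4 FPKM with DKK2, with overlapping groups. Brp44l, an older symbol of the mitochondrial pyruvate carrier subunit gene Mpc1, was at 5.71 and 2.77 FPKM versus 0.240 and 3.36 FPKM.

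Enzymes that break down branched-chain amino acids, downstream of the step catalysed by BCAT1 or parallel to it, were split evenly. Of 19 genes, all tested, 10 were lower and 9 higher, with a median of -0.05 (-0.02 to 0.04 with 1 library left out), and 2 lay below both controls and 2 above. Dbt, the transacylase of the branched-chain dehydrogenase, was at 11.99 and 11.03 FPKM in control cells and 9.89 and 8.09 FPKM with DKK2 (-0.33 ± 0.26). Its kinase gene Bckdk was at 83.2 and 67.7 FPKM versus 63.8 and 73.2 FPKM, and Acadsb, a dehydrogenase of the isoleucine branch, at 26.2 and 34.5 FPKM versus 29.7 and 46.6 FPKM. Dld, a subunit shared with other dehydrogenases, was at 61.1 and 65.2 FPKM versus 72.5 and 42.9 FPKM, and Auh, of the leucine branch, at 40.4 and 35.3 FPKM versus 53.7 and 40.0 FPKM.

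Genes that use glutamine or glutamate were lower in the fit in 10 of 10 tested, where 56.4% of all rows were, with a median of -0.38. Both DKK2 libraries were below both controls in 7 of them, where 14.8% of all rows were. The transporters and Bcat1 had the same counts, 10 of 10 and 7. None of the 10 glutamine and glutamate genes passed limma, and their median was -0.25 with either DKK2 library left out. Glud1, glutamate dehydrogenase, was at 143.4 and 140.7 FPKM versus 128.5 and 131.0 FPKM. Cad, the first enzymes of pyrimidine synthesis, was at 58.7 and 47.6 FPKM versus 14.9 and 51.0 FPKM (-0.90 ± 0.60), and Glul, which makes glutamine, at 36.7 and 28.0 FPKM versus 17.9 and 47.6 FPKM. In Cad and Glul the DKK2 replicates lay on either side of the lower control.

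Genes of leucine and amino acid sensing had a median of -0.14, with 12 of 16 lower, 4 below both controls and 2 above, and the median was 0.00 without DKK2 replicate 1. The GTPase gene Rragc, part of the complex that recruits mTORC1 to lysosomes, was at 57.8 and 64.2 FPKM in control cells and 54.8 and 40.1 FPKM with DKK2. Sar1b, a GTPase of vesicle transport that also binds leucine, was at 69.6 and 62.2 FPKM versus 61.5 and 49.9 FPKM. Eif2ak4, the kinase GCN2 that senses uncharged tRNA, was at 5.11 and 6.38 FPKM versus 6.78 and 8.09 FPKM (0.32 ± 0.28), above both controls. The leucine sensor gene Sesn2 was at 8.81 and 7.50 FPKM versus 3.53 and 8.30 FPKM.

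Factors known to control transporter genes showed no common direction at the RNA level, with 6 of 13 lower and a median of 0.02 (-0.13 to 0.17 with 1 library left out). Atf4, the driver of amino acid response genes, was at 228.2 and 148.7 FPKM in control cells and 239.3 and 131.1 FPKM with DKK2 (-0.06 ± 0.42). Hif1a was at 76.4 and 140.0 FPKM versus 66.5 and 106.9 FPKM, and Srebf1 at 83.7 and 58.0 FPKM versus 26.4 and 82.6 FPKM. Ddit3, a stress factor downstream of ATF4, was at 10.7 and 7.60 FPKM versus 9.44 and 20.4 FPKM (0.58 ± 0.43). Txnip, which restrains glucose uptake, was at 85.7 and 82.5 FPKM versus 90.6 and 153.2 FPKM, above both controls.

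Carriers of other nutrients had a median of -0.30, with 10 of 11 lower and 3 below both controls. That median was 0.04 or -0.80 when DKK2 replicate 1 or 2 was left out, and -0.47 when control replicate 2 was. Slc39a10, the zinc importer, was at 17.2 and 12.2 FPKM in control cells and 4.79 and 7.70 FPKM with DKK2 (-1.13 ± 0.34). The transferrin receptor gene Tfrc was at 159.3 and 138.4 FPKM versus 110.9 and 52.4 FPKM (-0.95 ± 0.42), and the nucleoside carrier gene Slc29a1 at 111.0 and 61.8 FPKM versus 36.0 and 64.9 FPKM (-0.76 ± 0.44). Slc28a2, another nucleoside carrier, went the other way, at 9.87 and 13.1 FPKM versus 13.4 and 16.4 FPKM, and Slc39a6, a zinc importer, was at 40.4 and 42.8 FPKM versus 30.3 and 41.4 FPKM.

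**Figure D4:**
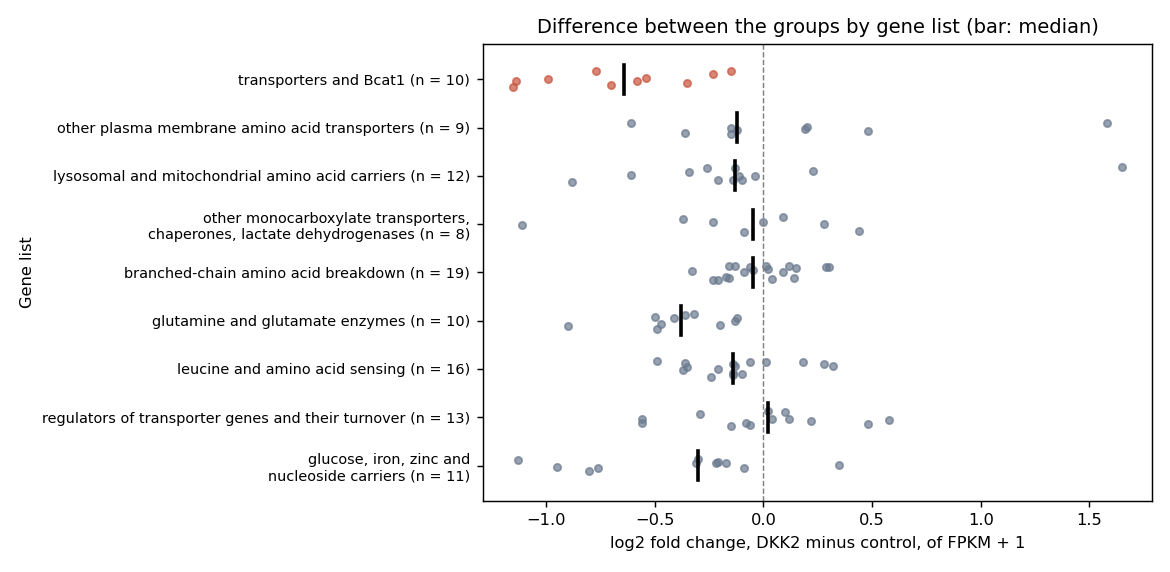
Each point is 1 tested gene, placed by its log2 fold change of FPKM + 1 (x axis, DKK2 minus control) in its list (y axis, with the number tested), and bars give the list medians. The red points are the transporters and Bcat1, picked on this contrast, with a median of -0.64, and the other medians run from -0.38 for the glutamine and glutamate enzymes to 0.02 for the regulators.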

How the data were processed

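Total RNA was sequenced from 2 control and 2 DKK2-treated samples of splenic NK cells. The libraries were made with a stranded total RNA kit, per the labels' protocols. The authors deposited FPKM values, 1 column per library, per the file headers, although the table is named for RPKM. Per the submitters' processing notes, mm9 was the build, and the tools included TopHat2 2.1.0 and Cuffdiff 2.1.0 beside CASAVA and edgeR, without their roles. The annotation, the use of strand and the sharing of multiply mapped fragments are not given in the sources used here. FPKM holds no counts, so no count model was used.

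Values were taken as log2(FPKM + 1) and rows with a mean of at least 1 FPKM were fitted together with limma 3.58.1 in R 4.3.3 (two-sided, trend on the mean level, Benjamini-Hochberg adjustment over 12275 rows). The fit was tested on simulated data. Relative depth came from the most frequent value of FPKM times transcript length among genes under 0.3 FPKM with 1 transcript of 1000 to 5000 bases. Each value column belonged to 1 sample by its name. The members and lists were chosen with earlier results of these data known. Genes are named by rule: the 10 members, the lowest, the highest and the 3 most abundant tested genes of each related list, any that passed, and the 5 closest profiles to Slc7a5, Slc16a6 and Bcat1. A gene that the rule names is not reported here. C1qa, C1qc, Itgax, Gzmb and Prf1 were named after their values were seen. Alternatives were the pseudocount, the filter on low values, normalization, biotype, variance settings, a replicate block and leaving out each library.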

Additional observations from a re-analysis of the deposited data

How the results depend on the processing

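None of the 10 genes passed the threshold under any of the 14 alternatives, where the smallest adjusted p of limma was 0.584, and no related gene did. Of 139 fold changes of single members under these alternatives 137 stayed below 0. The exceptions were values of Slc3a2, which ran from -0.48 to 0.19 with 1 library left out, at 0.03 without control replicate 1 and 0.19 without DKK2 replicate 1. The median over the 10 genes, -0.64, ranged from -0.84 to -0.51 with 1 library left out and from -0.65 to -0.57 under the other settings. The number with both DKK2 libraries below both controls, 7, was 5 after median rescaling and 6 after quantile normalization. It was also 6 with a minimum mean of 5 FPKM, which removed Bcat1, and 8 to 9 with 1 library left out, where the looser criterion of 1 library against 2 held in 23.7% to 42.0% of all rows. Over all rows limma called 4, but 0 of 22869 without the filter on low values (949 at an unadjusted p under 0.05), 0 of 10158 protein-coding rows alone (198), and 0 in each fit with 1 library left out (141 to 865). The replicate block gave 8 calls. Nothing says that equal numbers share a source, so the block is not a known pairing of samples. Deviations of same-numbered libraries had a correlation of 0.01 over the rows tested. That value cannot decide whether samples were paired, since the libraries also differed in transcripts of other cells. The cause of these shifts was not tested. Several list medians turned or lost their sign with 1 library left out, as given beside each list. The median of the carriers of other nutrients, -0.30, was 0.04 without DKK2 replicate 1 and -0.80 without DKK2 replicate 2. For the other plasma membrane amino acid transporters the median, -0.12, was 0.20 and -0.50 in the same order. The list medians thus depend on single DKK2 libraries. The depth of the libraries, read from steps between values, limits Bcat1 most.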
